A study of Drosophila melanogaster with 8 samples.

Results

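The control transcriptome of the Drosophila melanogaster wing imaginal disc was described from the 4 libraries titled as wild type, out of 8 libraries in the series, chosen by title and genotype. Each came from whole wing discs of the driver line 1151 crossed to w1118, a white-eyed laboratory strain, with the cross held at 29 °C until larvae wandered, about 5 days after egg lay. The controls carry the driver, which is known to be active in adult muscle precursors, and, per the labels, no CRISPR transgene. The other genotype, 1151>AntpCRISPR, is not analysed here. The libraries are called wt 1 to wt 4. A note on each says whether the submitters used it, which holds for wt 2 and wt 3 but not for wt 1 and wt 4, and no reason stands beside it. Separate animals or pools are not named for the 4, so their spread may be technical, and with 1 group no difference between groups was tested.

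The wing disc is an epithelial sac that grows through larval life and forms the wing and the dorsal thorax at metamorphosis. Its columnar layer is divided into pouch, hinge and notum by selector transcription factors and by the ligands Hedgehog, Dpp and Wingless, while Notch acts at boundaries within it. The adult muscle precursors (AMPs) are mesodermal cells under the notum that divide in the larva and fuse into flight muscle in the pupa, and a tracheal branch runs beside them. The discs were sequenced whole, so a transcript cannot be assigned to the epithelium, the AMPs or the trachea from these counts.

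Between 43309868 and 47980221 reads per library fell on genes, and 11711 to 13333 genes had at least 1 read. A count of 0 allows up to 0.0625 to 0.0693 CPM, a gene's reads scaled to a total of 1000000 per library, taking 3 counts as the floor. The floor covers counting error only, since PCR copies and separate molecules look alike in the counts. Different genes are set side by side in TPM, their reads per base of summed exon scaled to the same total. Among the genes given by library below, Hsp27, Hsp83, Hsp68, arm, Ama, twi, Act57B, tkv, smo, fng, Diap1, ex, Hr4, Hr3, usp and ftz-f1 share exon bases with another annotated gene, and part of their counts is uncertain.

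The 4 libraries were not equally far apart. Across 6390 genes the log2 ratio of wt 2 to wt 3 had a robust standard deviation of 0.06, against 0.04 from counting alone, and 0 genes differed by more than 2-fold. For the other 5 pairs this value lay between 0.28 and 0.43, with 71 to 315 genes beyond 2-fold, and it was largest between wt 1 and wt 4. wt 2 and wt 3 thus differed by more than counting noise but by less than any other pair. Both also held transcripts of digestive enzymes. The gut list, 13 genes such as the Jonah proteases and trypsins, made 0.000554%, 0.503%, 0.516% and 0.000352% of TPM in wt 1, wt 2, wt 3 and wt 4. wt 4 differed most by gene length, with a median log2 difference from the other libraries of 0.39 for genes under 1000 bases of exon and -0.27 for genes of 4000 bases or more. For the short genes wt 2 and wt 3 lay the other way, at -0.13 and -0.16, and for the long genes at 0.00086 and 0.010. wt 1 had 0.12 and 0.14.

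Markers of the disc were present, and those of other tissues ranged from near 0 to well above the median of measured genes. All 33 matched disc territory factors and all 24 matched epithelial junction genes reached at least 1 TPM in every library. Of all 17253 annotated IDs, 7488 did so, and 8245 averaged at least 1 TPM. Among 11 neuronal markers, elav, a neuronal RNA-binding protein, and Syx1A, a membrane-fusion protein, averaged 13.1 and 37.6 TPM, and the other 9 averaged below 1 TPM. Of 7 glial genes, 4 averaged at least 1 TPM, the highest being Gs2, a glutamine synthetase, at 25.3 TPM, while the glial factor repo averaged 0.269 TPM. Of 15 factors of leg, eye, haltere and abdomen, 9 averaged at least 1 TPM, led by the leg factor dac at 26.7 TPM. The haltere selector Ubx averaged 18.4 TPM, and the eye factors ey and gl 0.379 and 0.530 TPM. Of 11 blood cell genes, 9 averaged at least 1 TPM. The highest was Fer2LCH, a ferritin light chain that other cells also express, at 259 TPM, followed by the scavenger receptor crq at 24.3 TPM, while the blood cell protein Hml averaged 2.58 TPM and the GATA factor srp 0.546 TPM. Of 10 tracheal genes, 9 averaged at least 1 TPM. They were led by the chitin deacetylase verm at 397 ± 76.4 TPM; the POU factor vvl, which is also known outside the trachea, had 234 ± 13.9 TPM (SD, n = 4), and trh, the tracheal selector, had 27.9 ± 5.38 TPM. The gut, fat body and salivary gland lists differed between libraries and are described with the variable genes.

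A total of 7488 genes reached 1 TPM in every library, 7104 of them protein-coding out of 13685 annotated and 203 of them noncoding RNAs out of 2583. Another 3052 genes had no read in any of the 4. Mean levels of 10 TPM or more were reached by 6256 genes, of 100 TPM or more by 1423 and of 1000 TPM or more by 132. Among the measured genes, those at 1 TPM in every library, the median level was 37.05 ± 2.51 TPM per library (SD, n = 4), and the 99th percentile lay 3.28 log10 units above the 1st. Abundance was concentrated in few genes. In each library the 10 highest genes held 12.03% to 13.3% of TPM, the 100 highest 44.2% to 46.3% and the 1000 highest 73% to 75.7%. Between 125 and 148 genes together held 50% of TPM.

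**Figure D1:**
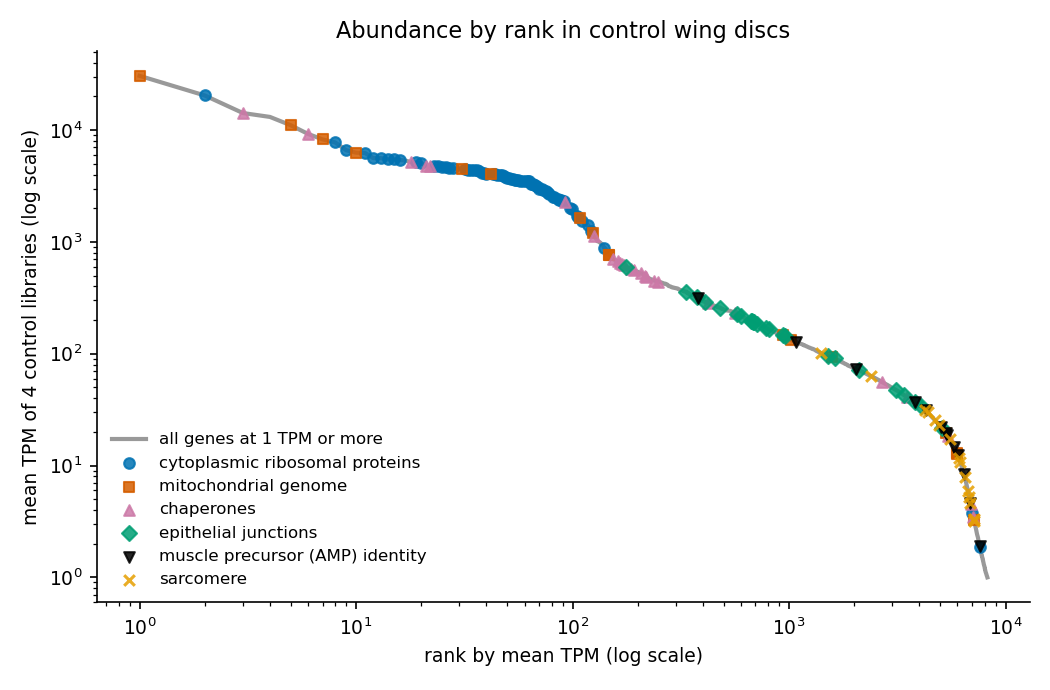
Mean TPM over the 4 control libraries (log scale) against rank (log scale) for genes at 1 TPM or more, as a grey line, with the members of 6 groups marked. Ribosomal protein, mitochondrial and chaperone genes reach the upper left, epithelial junction genes lie between ranks 177 and 5098, and the AMP and sarcomere genes lie mostly further right.

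The top of the list was made of the ribosome, the mitochondrial genome and small heat shock proteins. Of the 20 annotated genes with the highest mean TPM, 12 encoded proteins of the cytoplasmic ribosome and 4 were mitochondrial. Another 3 were chaperones and 1 was the noncoding RNA lncRNA:CR40469. The large mitochondrial ribosomal RNA, mt:lrRNA, was highest in all 4 libraries, at 32766, 33473, 26503 and 29359 TPM in wt 1, wt 2, wt 3 and wt 4. RpL41, which encodes a very small ribosomal protein (chromosome arm 2R, 24903416 to 24903935 on build dm6), had 18579, 19024, 18394 and 25482 TPM, and wt 4 stood above the other 3. lncRNA:CR40469 (X, 122493 to 122706) had 14834, 10382, 10074 and 17120 TPM, higher in wt 1 and wt 4 than in wt 2 and wt 3. The order depends on length. By reads, mt:lrRNA again led with 2.02 ± 0.214% of gene reads. An ID that has no symbol here, FBgn0000556, followed with 1.39 ± 0.129%, and the poly(A)-binding protein gene pAbp with 0.757 ± 0.0470% (SD, n = 4). IDs without annotation took 5.59% to 6.11% of gene reads. They have no TPM here, so the ranks, the 20 highest genes and the shares of TPM leave them out.

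Cytoplasmic ribosomal protein genes, taken by symbols with at most 1 letter after the number, held 28.5%, 27.6%, 27.9% and 29.8% of TPM in wt 1, wt 2, wt 3 and wt 4, more than any other class or list counted. These genes are short, and they held 12.6% of reads on average. Of 77 genes, 73 averaged at least 100 TPM and 67 were among the 100 highest genes of the disc. This rule missed RpL10Ab, RpS15Aa and RpL37-1. With longer suffixes included, a rule chosen after the values were seen, 70 of 83 genes were among the 100 highest, and they held 29.5 ± 1.001% of TPM (SD, n = 4). The 73 ran between 884 TPM for RpL34a and 20370 TPM for RpL41. The other 4 were copies of ribosomal protein genes: RpS19b at 3.78 TPM, RpS5b at 1.87 TPM, RpS10a at 0.409 TPM and RpS28a at 0.112 TPM. Translation factors with an annotated symbol added 2.10 ± 0.140% of TPM. The elongation factor eEF1alpha1 matched no entry and is not in this share, so its place is not known here. Those counted were led by the elongation factors eEF2 at 3495 ± 589 TPM and eEF1gamma at 2493 ± 408 TPM. The helicase eIF4A followed at 2058 ± 52.1 TPM (SD, n = 4). All 16 matched ribosome biogenesis genes exceeded the median of measured genes, between Polr1B, a subunit of RNA polymerase I, at 44.3 TPM and Nph at 556 TPM.

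Mitochondrial transcripts came next. The mitochondrial genome held 8.34%, 6.84%, 5.37% and 7.21% of TPM in wt 1, wt 2, wt 3 and wt 4, so wt 2 and wt 3, alike in most genes, were apart here. Its cytochrome oxidase genes mt:CoIII, mt:CoI and mt:CoII averaged 11018 ± 2502, 8249 ± 1862 and 6276 ± 1649 TPM (SD, n = 4), each highest in wt 1 and lowest in wt 3. mt:ND6, a complex I subunit, averaged 92.9 TPM and the small ribosomal RNA mt:srRNA 19.6 TPM, far below mt:lrRNA. mt:ATPase8, at 12.96 TPM, shares bases with mt:ATPase6, at 4034 TPM, so both counts are uncertain. Nuclear oxidative phosphorylation genes held 1.47 ± 0.109% of TPM, with the ATP synthase genes ATPsynC and ATPsynbeta highest at 1616 ± 179 and 1139 ± 119 TPM. Mitochondrial ribosomal proteins held 0.464 ± 0.0306%, and 70 of 71 averaged at least 1 TPM. Their list median was 60.97 ± 3.67 TPM per library, against 3595 ± 80.1 TPM for the cytoplasmic ribosomal proteins.

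Chaperones held 4.09%, 5.95%, 6.08% and 3.49% of TPM in wt 1, wt 2, wt 3 and wt 4. Neighbouring small heat shock genes on 3L carried much of it; this family of chaperones is known in Drosophila to respond to heat and to the steroid hormone ecdysone. Hsp23 (9381882 to 9382765) had 10061, 18081, 18437 and 10165 TPM in wt 1, wt 2, wt 3 and wt 4. Hsp26 (9376418 to 9377427) had 7326, 12248, 12299 and 5055 TPM, and Hsp27 (9384063 to 9385694) had 2911, 6312, 6456 and 4929.8 TPM. All 3 were highest in wt 2 and wt 3, with no overlap with wt 1 and wt 4. By TPM, 37.4% of genes with at least 1 CPM had this order, and that share depends on the scale. Hsp83, the fly Hsp90, had 4618, 6205, 6345 and 2054 TPM and was lowest in wt 4. The constitutive Hsc70-4 differed less, at 4793, 5057, 5272 and 4014 TPM, and so did Hsp68, a heat-inducible Hsp70 relative, at 2189.5, 2511, 2619 and 1851 TPM. Among the near-identical Hsp70 copies, whose reads cannot be split with certainty, Hsp70Bb averaged 499 TPM and Hsp70Ab 3.47 TPM. Hsp22, of the same cluster, had 0 reads in all 4 libraries, and its annotated exons overlap CG4456.

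Matched cytoskeletal genes held 1.82 ± 0.0961% of TPM. The list entries betaTub56D, zip and Arpc4 matched no entry and are not in this share. Act5C and alphaTub84B, a cytoplasmic actin and an alpha-tubulin, averaged 4522 ± 394 and 4519 ± 417 TPM, and the cofilin tsr, which severs actin, 2448 ± 308 TPM (SD, n = 4). Proteasome genes had the narrowest range of the 8 classes defined by gene names. Of 32, 31 lay between Rpn13 at 161 TPM and Prosalpha7 at 416 TPM, a 2.58-fold span, and Prosalpha1, whose exons overlap phr, had 0 reads. Cell cycle genes had a list median of 121 ± 11.9 TPM per library and were led by PCNA, the DNA polymerase clamp, at 531 ± 36.9 TPM and by the mitotic kinase Cdk1 at 330.1 ± 44.4 TPM. Of 116 histone genes, 4 averaged more than 1 TPM. They were His4r, His3.3B, His2Av and His3.3A, at 2142, 1454, 1262 and 384 TPM. Most of the remaining histone genes are near-identical copies, and reads without a unique place were not counted to a gene, so their level was not measured. Glycolytic genes had a list median of 190.5 ± 19.8 TPM and ran from the lactate dehydrogenase Ldh at 8.32 ± 1.45 TPM to Gapdh2 at 944 ± 121 TPM.

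**Figure D2:**
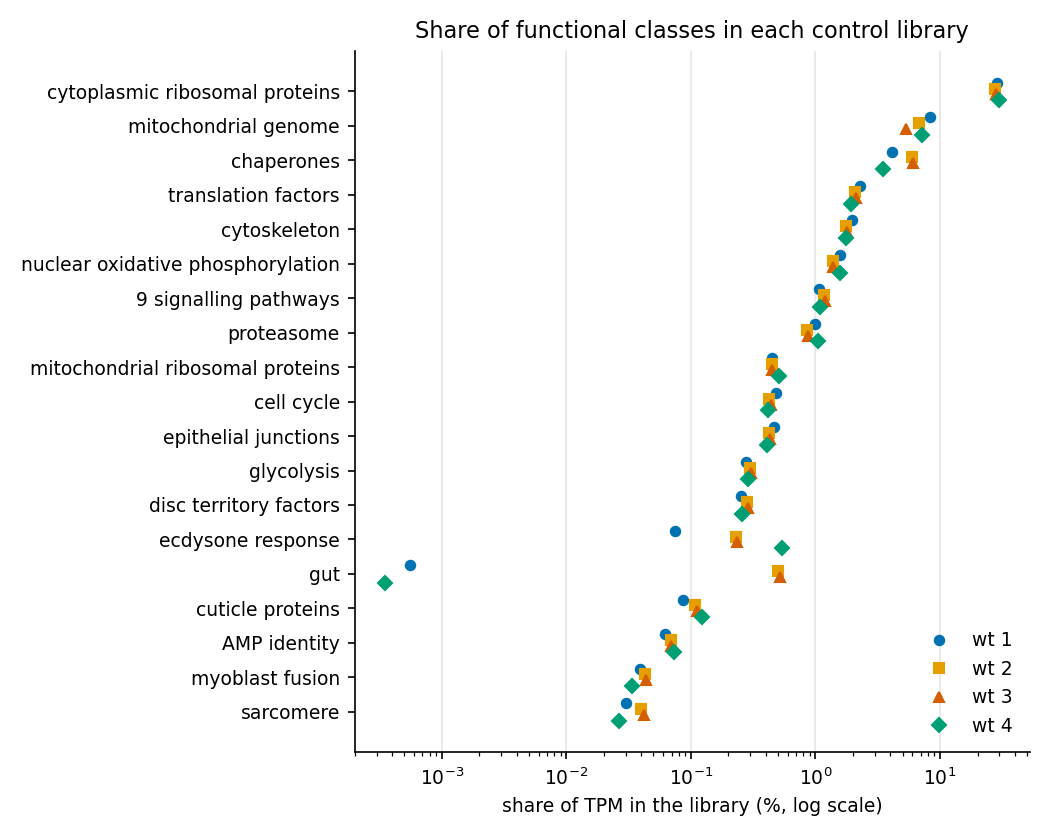
Share of TPM (%, log scale) held by 19 gene groups in each control library, 1 symbol per library. Most groups differ little between libraries, while the gut list is at 0.503% and 0.516% in wt 2 and wt 3 and near 0 in wt 1 and wt 4, and the ecdysone list is lowest in wt 1 and highest in wt 4.

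Epithelial junction genes were high. Their list median was 194, 173, 167 and 159.7 TPM in wt 1, wt 2, wt 3 and wt 4, against 34.8, 38.7, 39.7 and 35.02 TPM for all measured genes. Of 24 members, 21 exceeded the median of measured genes and 16 were among the 1000 highest genes. arm, the fly beta-catenin of adherens junctions, which also carries the Wingless signal, led with 647, 592, 626 and 541 TPM in wt 1, wt 2, wt 3 and wt 4. The adhesion proteins ed and Fas3 averaged 358 ± 38.9 and 321 ± 42.6 TPM, and E-cadherin, shg, 197 ± 24.8 TPM (SD, n = 4). The claudin-like septate junction proteins kune, sinu and pck averaged 257, 193 and 191 TPM. Polarity proteins were lower. crb, the apical determinant, had 113, 103, 108 and 57.1 TPM and was lowest in wt 4, its partner sdt averaged 36.8 ± 7.62 TPM, and baz, the fly Par3, was the lowest of the list at 21.5 ± 1.77 TPM. par-6, another polarity scaffold, was nearly level at 90, 90.7, 89.2 and 92.8 TPM. The members spanned 28-fold.

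The transcription factors that divide the disc spanned 37.1-fold in mean level. Their list median was 54.02, 80.3, 84.01 and 56.3 TPM in wt 1, wt 2, wt 3 and wt 4, higher in wt 2 and wt 3. bowl, a zinc-finger factor, averaged 312 ± 37.95 TPM, the homeodomain partners exd and hth averaged 282 ± 34.6 and 231 ± 7.78 TPM, and the proximal factor tsh averaged 144 ± 12 TPM (SD, n = 4). The wing selector complex was even. sd had 137, 143, 148 and 139 TPM and its cofactor vg, which AMPs also express, had 113, 138, 137 and 118 TPM. The pouch factor nub averaged 119 ± 12.8 TPM.

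Factors of single territories were mostly lower. en, the posterior selector, had 54.02, 63.9, 62.3 and 63.9 TPM in wt 1, wt 2, wt 3 and wt 4, and its paralog inv had 28.4, 34.1, 34.8 and 34.8 TPM. The Dpp targets salm, salr and bi averaged 75.2 ± 14.9, 78.4 ± 16.6 and 90.6 ± 6.65 TPM. The Iroquois genes ara, caup and mirr averaged 83.5 ± 14.4, 69.99 ± 14.1 and 92.98 ± 26.96 TPM, and the notum GATA factor pnr 20.4 ± 4.51 TPM. Dll, which acts near the wing margin, had 48.7, 87.9, 88.4 and 85.3 TPM and stood low in wt 1. The lowest were odd at 9.56 ± 1.39 TPM and ct, a homeodomain factor of the margin and of a subset of AMPs, at 8.42 ± 1.08 TPM.

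Genes that define AMPs lay below the epithelial ones. The list median of 14 matched AMP genes was 20.3, 20.4, 21.2 and 14.2 TPM in wt 1, wt 2, wt 3 and wt 4, under the median of all measured genes in each library, and 3 members averaged above that of measured genes. The list members vg and ct are also on the disc territory list, so these lists overlap. In whole discs, few cells of a type and little RNA per cell cannot be told apart. Ama, a secreted adhesion protein, was highest at 280.4, 307, 310.4 and 370.1 TPM, and the RNA-binding protein how averaged 72.6 ± 9.24 TPM. twi, the bHLH factor of the mesoderm, had 19.96, 20.9, 21.8 and 15.1 TPM in wt 1, wt 2, wt 3 and wt 4. htl, the fibroblast growth factor (FGF) receptor of these cells, had 21.3, 19.9, 20.7 and 13.3 TPM, and its adaptor stumps had 22.2, 23.8, 24.4 and 18.1 TPM. These 3 were lowest in wt 4. Him, which holds back muscle differentiation, had 20.7, 34.4, 33.8 and 35.8 TPM and was lowest in wt 1.

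Regulators of muscle differentiation on the AMP list ranged widely. zfh1, which keeps AMPs undifferentiated, averaged 12.3 ± 2.56 TPM and Mef2, the muscle differentiation factor, 14.6 ± 1.65 TPM. E(spl)m6-BFM, a Bearded-family gene, averaged 36.6 ± 1.60 TPM and the zinc-finger gene Cph 4.61 ± 0.466 TPM. lms, a homeodomain factor of muscle, averaged 1.91 ± 0.952 TPM and nau, the fly MyoD, 0.719 ± 0.346 TPM (SD, n = 4). Both lms and nau were lowest in wt 1 and highest in wt 4, and both share exon bases with another gene.

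Genes of later muscle steps were mostly low. The myoblast fusion list had a median of 23.2 ± 3.47 TPM per library, which overlapped that of the AMP list. Its highest member was blow at 96.1 ± 13.7 TPM, and the founder cell scaffold rols and the actin regulator SCAR averaged 50.7 ± 5.18 and 49.8 ± 2.66 TPM. The adhesion receptors kirre and sns averaged 8.78 and 6.08 TPM, and lmd, a factor of fusion-competent cells in the embryo, 0.00980 TPM. The sarcomere list had a median of 4.97 ± 1.32 TPM, with no overlap with the AMP list between libraries, and 15 of 23 genes averaged at least 1 TPM. Act57B, a muscle actin, had 93, 122, 129 and 62.2 TPM in wt 1, wt 2, wt 3 and wt 4, and the muscle myosin light chain Mlc2 had 61.8, 71.1, 72.9 and 46.1 TPM. Mhc, the muscle myosin heavy chain, had 7.06, 7.11, 8.04 and 1.47 TPM. All 3 were lowest in wt 4. The flight muscle genes Act88F and fln averaged 0.130 and 0.00888 TPM.

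**Figure D3:**
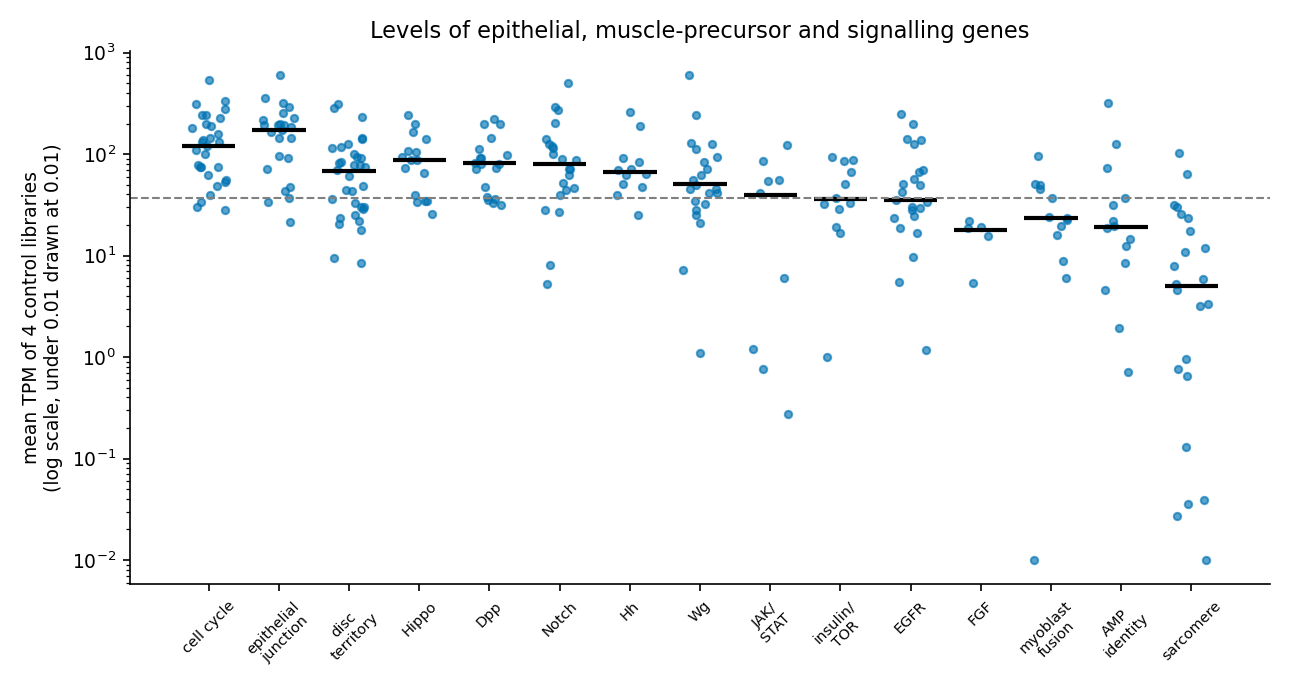
Mean TPM over the 4 control libraries (log scale) of each gene, 1 point per gene, in 15 lists. Black bars are list medians averaged over libraries and the dashed line is the same for all measured genes, 37.05 TPM. The epithelial junction, cell cycle and territory lists lie above it. The insulin/TOR, EGFR, FGF, fusion, AMP and sarcomere lists lie below it.

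Signalling genes were mostly mid-range. The 9 pathways held 140 matched genes, and 138 averaged at least 1 TPM; another 9 list entries, wg and Dl among them, are not analysed here. The list median was 54.2, 59.9, 61.5 and 47.4 TPM in wt 1, wt 2, wt 3 and wt 4, and 92 of 140 exceeded the median of measured genes. Together they made 1.12 ± 0.0629% of TPM, with 21 among the 1000 highest genes and 0 among the 100 highest. The list medians of Hippo, Dpp, Notch and Hedgehog genes, at 87.5 ± 12.04, 81.2 ± 5.48, 80.4 ± 9.44 and 67.3 ± 6.08 TPM, each overlapped the next between libraries. Wingless genes, at 50.7 ± 4.35 TPM, lay below Hedgehog genes with no overlap. JAK/STAT, insulin/TOR and EGFR genes followed at 39.5 ± 10.2, 35.8 ± 2.16 and 34.9 ± 3.04 TPM, each overlapping the list before it. The 5 FGF genes, at 17.7 ± 3.30 TPM, lay below EGFR genes with no overlap.

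Ligands were the lowest role. The 20 ligand genes had a list median of 16.7, 24.01, 24.7 and 17.9 TPM in wt 1, wt 2, wt 3 and wt 4, with no overlap with any other role. The 21 receptors and co-receptors had a median of 89.4 ± 11.2 TPM and the 22 feedback genes and targets 88.7 ± 11.3 TPM. The 20 nuclear effectors had 70.2 ± 12.6 TPM, the 41 cytoplasmic transducers 49.8 ± 7.33 TPM and the 16 proteins that release or modify ligands 41.7 ± 5.08 TPM (SD, n = 4). Each of these overlapped the next between libraries. Among genes averaging 1 TPM or more, ligands spanned 198-fold and receptors 12.9-fold.

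Among ligands, spi, the main EGFR ligand, had 116, 209.8, 210.0 and 265 TPM in wt 1, wt 2, wt 3 and wt 4, and gbb, a BMP, had 185, 194, 203 and 208 TPM. spi was lowest in wt 1 and highest in wt 4, while gbb differed little. hh, secreted by posterior cells, had 63.8, 89.9, 92.9 and 86.4 TPM, and dpp, made along the compartment boundary, had 41.6, 40.4, 40.96 and 28.1 TPM. wt 1 was the low library for hh and wt 4 for dpp. Ser, a Notch ligand, averaged 139.6 ± 27.8 TPM. Of the Wnt genes, Wnt5 averaged 71.1 ± 3.10 TPM, Wnt2 41.3 ± 16.2 TPM, Wnt6 32.6 ± 7.41 TPM, Wnt4 7.14 ± 3.28 TPM and Wnt10 1.10 ± 0.382 TPM. The FGF ligands ths and pyr, which signal through htl, averaged 19.2 ± 4.90 and 15.7 ± 2.76 TPM, close to htl itself at 18.8 ± 3.69 TPM, and bnl, the ligand of the tracheal receptor, 5.38 ± 0.784 TPM. The JAK/STAT ligands upd1, upd2 and upd3 averaged 5.95, 0.278 and 1.19 TPM. Ilp8, a hormone that damaged discs release, averaged 1.01 ± 0.844 TPM.

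Receptors were led by fz2, for Wingless, at 243 ± 17.5 TPM. tkv, for Dpp, had 179, 238, 236 and 224 TPM in wt 1, wt 2, wt 3 and wt 4, and N, the Notch receptor, had 271, 205, 213 and 129.8 TPM. tkv was lowest in wt 1, and N was highest there and lowest in wt 4. The Dpp co-receptor dally averaged 196 ± 32.7 TPM, the Hedgehog co-receptor ihog 188 ± 29.1 TPM, and Egfr 137 ± 28.7 TPM. ptc, the Hedgehog receptor, had 65.2, 72.5, 71.9 and 43.4 TPM, and smo, the transducer it restrains, had 48.9, 47.5, 47.1 and 58.96 TPM. In wt 4, ptc was at its lowest and smo at its highest. fng, which modifies Notch, had 192, 325, 331 and 239 TPM, and rho, which releases EGFR ligands, had 2.59, 10.5, 11.6 and 13.7 TPM. Both were lowest in wt 1.

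Among transducers and nuclear effectors, the GTPase Ras85D averaged 249.8 ± 16.3 TPM and the Hedgehog effector ci 261 ± 29.3 TPM. Mad, the Dpp effector, had 81.6, 84.4, 82.5 and 80.2 TPM in wt 1, wt 2, wt 3 and wt 4 and was nearly level, and Su(fu), which restrains ci, had 67.9, 70.7, 75.1 and 71.6 TPM. Stat92E averaged 122 ± 8.67 TPM and the Hippo effector yki 108 ± 15.4 TPM, close to its partner sd. pan, the nuclear factor of the Wingless pathway, averaged 25.1 ± 3.98 TPM. The MAP kinase rl and the ETS factor pnt averaged 18.5 ± 4.14 and 16.9 ± 2.11 TPM. In the insulin and TOR pathway, the kinase Akt and the GTPase Rheb averaged 93.6 ± 7.08 and 85.5 ± 11.2 TPM and raptor 16.7 ± 2.87 TPM.

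Among targets and feedback genes, the E(spl) complex was prominent. E(spl)malpha-BFM, a Notch target of the Bearded family, had 328, 473, 491 and 734 TPM in wt 1, wt 2, wt 3 and wt 4. E(spl)mbeta-HLH, a bHLH repressor of the same complex, had 133, 278, 278 and 465 TPM, and E(spl)m5-HLH averaged 5.19 ± 1.92 TPM. E(spl)malpha-BFM and E(spl)mbeta-HLH were lowest in wt 1 and highest in wt 4, as were 9 of 22 Notch genes, against 1693 of 7776 genes with at least 1 CPM (21.8%). Diap1, a target of yki, had 174, 260.3, 264 and 277 TPM and ex, another, had 205, 182, 189 and 84.3 TPM. ft, the atypical cadherin upstream of Hippo, had 120.4, 93.2, 96.5 and 40.6 TPM. wt 4 was highest for Diap1 and lowest for ex and ft. Long genes were low in wt 4 in general, and the part of length in the values of single genes was not tested. Dad, the Dpp inhibitor, averaged 97.6 ± 16.2 TPM, the Wingless antagonist nkd 94.4 ± 14.1 TPM, and Socs36E, the JAK/STAT inhibitor, 54.9 ± 17.2 TPM.

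The ecdysone response list was uneven between libraries. It held 0.0751%, 0.231%, 0.235% and 0.543% of TPM in wt 1, wt 2, wt 3 and wt 4. Ecdysone is the steroid that drives wandering and disc eversion, and nuclear receptors relay it in waves. ImpE2, a disc transcript that ecdysone induces (3L, 3510974 to 3512681), had 352, 1659, 1698 and 4602 TPM, and ImpE3 had 43.7, 112, 115 and 318 TPM. Of the nuclear receptors, Eip78C had 2.90, 13.6, 13.8 and 32.3 TPM. Hr4 had 0.336, 5.97, 6.07 and 18.4 TPM and Hr3 had 0.0221, 0.158, 0.176 and 3.08 TPM. For these 5 genes wt 1 was lowest, wt 4 highest and wt 2 and wt 3 lay between, and 8 of the 17 genes of the list had wt 1 lowest and wt 4 highest, against 21.8% of all genes with at least 1 CPM. The receptor subunits went otherwise: EcR had 58.03, 47.8, 45.8 and 33.8 TPM and usp 48.8, 56.7, 54.8 and 40.8 TPM, both lowest in wt 4. ftz-f1, a competence factor of the prepupa, had 11.9, 10.9, 10.7 and 2.21 TPM and was also lowest in wt 4.

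Spread between libraries was measured on counts scaled by TMM factors (trimmed mean of M values), as the coefficient of variation beyond counting noise (excess CV), for 7776 genes with a mean of at least 1 CPM. Its median was 15.5%. Of these genes, 1985 (25.5%) were called stable, under 10%, and 415 (5.34%) variable, at 50% or more. With wt 2 and wt 3 counted as 1 library, 1719 were stable and 580 variable, and 1681 and 414 of the calls were shared. Both counts rest on the estimate and the filter. edgeR's tagwise estimate called 0 genes stable, a filter of 1 read in 1 library gave 4070 stable and 3195 variable genes, and one of 10 CPM gave 121 variable genes. The stable count also rests on single libraries. Without wt 4 it was 3845, and without wt 1 it was 3155. Low genes varied more: the median excess CV was 26.7% for genes of 1 to 10 TPM, 13.8% from 10 to 100 TPM, 15.6% from 100 to 1000 TPM and 13.1% above that. Of the variable genes, 288 averaged under 10 TPM.

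An excess CV of 0 was found for 129 genes, among them the 10 most stable of at least 10 TPM, which were ordered by their whole CV. In TMM-scaled CPM, mys, the integrin beta subunit, had 279, 273, 275 and 276 in wt 1, wt 2, wt 3 and wt 4, and nudE, a dynein regulator, had 95.1, 93.5, 94.02 and 94.8. Rel, an NF-kappaB factor of immunity, had 72.7, 73.7, 72.6 and 71.97 CPM. The rest were CG2162, Cep97, ECSIT, Lsm12a, nod, Ssl1 and CG6179. In TPM, mys had 116, 129, 132 and 117, with wt 2 and wt 3 above both others. Counts of genes by order of libraries are in TPM, except at the 10-fold threshold. A small difference in such an order can therefore hold for genes that are level in TMM-scaled CPM. Among disc factors, pdm2, vg and sd had excess CVs of 1.54%, 2.91% and 4.09%. In signalling, 39 of 137 genes were stable and 2 variable, where all genes tested gave 25.5% stable and 5.34% variable. The fusion regulators rst and SCAR had 3.05% and 3.43%.

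Of 14 genes often used to normalise expression, 2 were stable and 0 variable, beside 25.5% and 5.34% of all genes tested. Tbp, the TATA-binding protein, had 3.32% and RpS20 7.97%. Act5C and alphaTub84B had 11.96% and 10.8%, RpL32 11.9%, Gapdh1 19.2%, and Polr2A, which was lowest in wt 4, 26%.

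**Figure D4:**
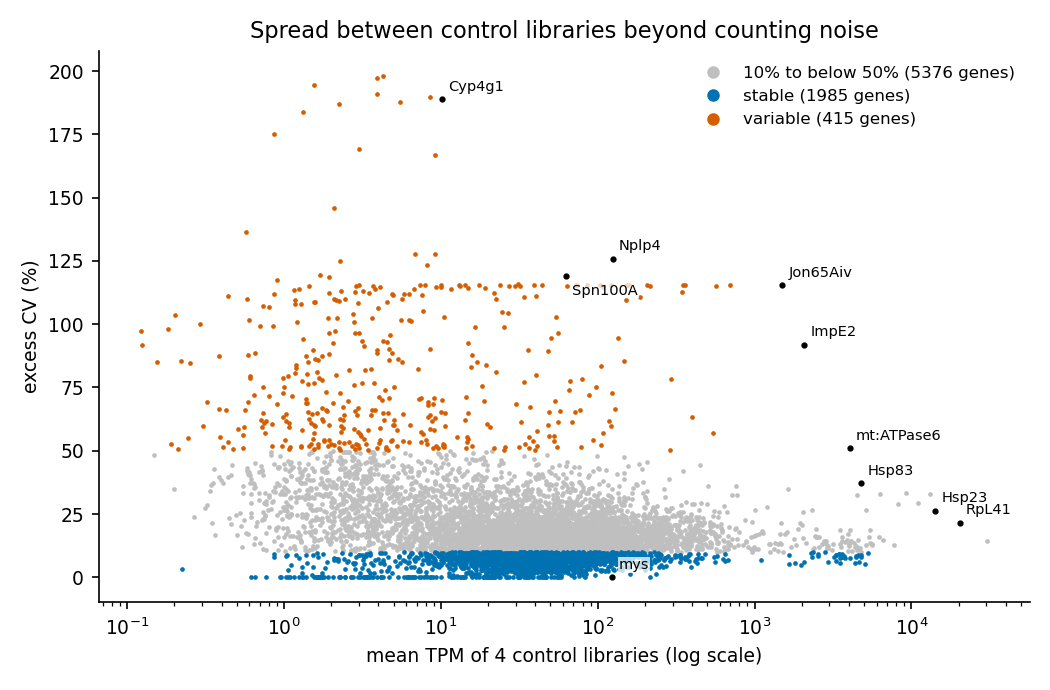
Excess CV between the 4 control libraries (%) against mean TPM (log scale) for 7776 genes with a mean of at least 1 CPM, with 10 genes labelled. The 1985 stable genes lie under 10%, and Jon65Aiv lies far above them, at 115%.

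Because wt 2 and wt 3 lay close together, few orders of the libraries were open to a variable gene. In 219 of 415 both wt 2 and wt 3 were above wt 1 and wt 4, and in 136 wt 1 was lowest and wt 4 highest. Of all genes with at least 1 CPM, 37.4% and 21.8% had these orders. In 50 variable genes wt 4 was lowest and wt 1 highest, and in 4 both wt 2 and wt 3 were below the others. For these last orders the share of all genes is not given here. At a 10-fold threshold, 80 genes were higher in both wt 2 and wt 3 than in each of wt 1 and wt 4, and 0 genes were the other way. Those 80 held 0.00205%, 1.22%, 1.24% and 0.00666% of TPM in wt 1, wt 2, wt 3 and wt 4. For single libraries, 13 genes were 10-fold above all others in wt 4 and 0 in each of wt 1, wt 2 and wt 3. In the other direction, 17 genes were 10-fold below all others in wt 1, 7 in wt 4 and 0 in wt 2 and in wt 3.

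Digestive proteases led the genes high in wt 2 and wt 3. Jon65Aiv (3L, 6039155 to 6040135) had 0.409, 2967, 3057 and 0.9002 TPM in wt 1, wt 2, wt 3 and wt 4, which is 8, 63106, 58483 and 19 reads. Jon65Aiii had 0.0528, 1372, 1403 and 0.0979 TPM, and yip7, another serine protease, had 0, 686, 713 and 0.237 TPM. In each library these 3 genes differed most from the median of the other libraries. deltaTry, CG17636, CG6933, CG17145 and CG6839, all among the 10 most variable genes, had 0 or 1 read in wt 1 and wt 4. Of 13 gut genes, 7 had at least 1 CPM, 6 were variable, and all 7 were higher in wt 2 and wt 3. Of all genes with at least 1 CPM, 5.34% were variable and 37.4% had wt 2 and wt 3 above both others. The 7 fat body genes with at least 1 CPM were all variable and higher in wt 2 and wt 3. Among them the storage protein Lsp1beta had 11.1, 101, 107 and 5.48 TPM and Fbp1 had 0.520, 49.8, 52.3 and 4.14 TPM. Of 6 neuronal markers with at least 1 CPM, 5 were higher in wt 2 and wt 3, nSyb with 0.204, 1.06, 1.02 and 0.126 TPM. The part of gut, fat body or neural tissue in the other differences of wt 2 and wt 3 was not tested.

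Salivary gland genes had another order. All 7 were lowest in wt 1 and highest in wt 4, as were 21.8% of all genes with at least 1 CPM. The glue protein gene Sgs3 had 1.96, 19.4, 17.5 and 58.7 TPM in wt 1, wt 2, wt 3 and wt 4, Sgs7 had 10.5, 80.5, 89.8 and 128 TPM, and Eig71Ee, which ecdysone induces, had 0.684, 4.95, 4.71 and 22.3 TPM. Glue genes belong to the salivary gland and not to the disc, and the list held 0.00205%, 0.0178%, 0.0186% and 0.0364% of TPM. The share of the ecdysone list had the same order of wt 1 and wt 4, and the part of salivary gland tissue in it was not tested. Spn100A, a serpin, also was lowest in wt 1 and highest in wt 4, with 1.22, 39.7, 44.8 and 165 TPM.

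Some genes were high in 1 library. Cyp4g1, an enzyme of hydrocarbon synthesis in oenocytes, had the highest excess CV of genes at 10 TPM or more with the 4 libraries counted singly, 189%. With wt 2 and wt 3 as 1 library it had 166%, below CG6933 at 173%. Cyp4g1 had 0.466, 0.727, 0.663 and 39.02 TPM in wt 1, wt 2, wt 3 and wt 4. Nplp4, a neuropeptide-like precursor, had 349, 62.3, 61.5 and 27.3 TPM, and CG13678 had 46.4, 6.36, 8.76 and 8.47 TPM. Both were highest in wt 1. Of 27 cuticle protein genes with at least 1 CPM, 12 were variable, against 5.34% of all genes tested. Cpr49Ac averaged 134 ± 119 TPM, whereas Lcp4, the highest of the class, averaged 148 ± 22.9 TPM (SD, n = 4).

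**Figure D5:**
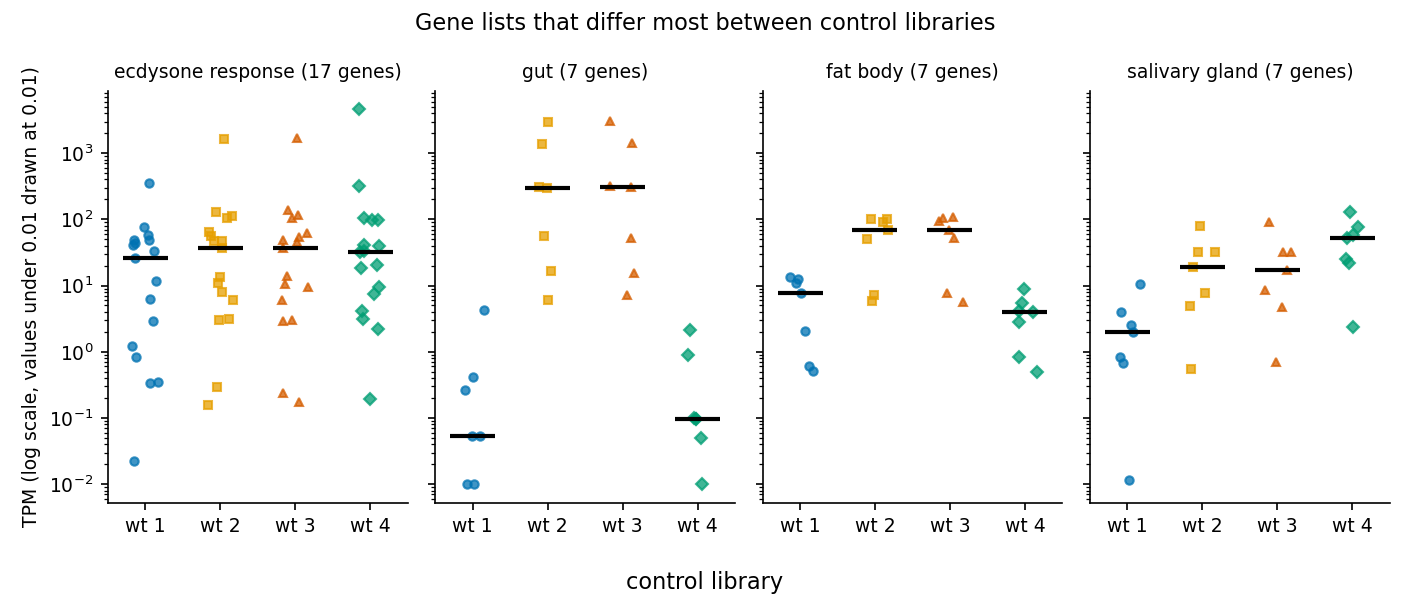
TPM (log scale) in each control library of the genes with at least 1 CPM in 4 lists, 1 point per gene with the median as a bar. Gut and fat body genes are highest in wt 2 and wt 3, and salivary gland genes are lowest in wt 1 and highest in wt 4, as are 8 of 17 ecdysone genes.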

How the data were processed

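RNA-seq was made from whole wing discs with a Monarch RNA kit and a ThruPLEX DNA-Seq library kit, per the labels' protocols. Per the submitters' processing notes, FastQC, Trimmomatic 0.36, STAR, DESeq2 and build dm6 were used. Which program counted reads, with what strand setting and on which annotation, is not given in the sources used here. The deposited values are unnormalised counts of reads for each gene. Of 17559 gene IDs, 17253 matched the annotation supplied with the files. The 5 summary entries of each file were left out, with reads on no feature at 1.21% to 1.74%, ambiguous reads at 3.07% to 3.32% and reads without a unique place at 3.11% to 3.55%. A gene that shares exon bases with another can lose reads as ambiguous.

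TPM was computed from counts and summed exon length. Spread used counts scaled by TMM factors, as sqrt(variance - mean counting variance)/mean, set to 0 where the difference was negative. The counting variance of a value was its count times the squared scaling factor. edgeR 4.0.16, DESeq2 1.42.0 (size factors), R 4.3.3, Python 3.11.15, pandas 2.3.3, numpy 2.4.6, scipy 1.17.1 and matplotlib 3.10.9 were used. The spread estimate was also run on simulated counts of independent libraries, whereas wt 2 and wt 3 lay closer than any other pair. Its outcome is not given here, so the rate of false stable or variable calls is not known. Samples were grouped by title. Gene lists, thresholds and the decision to describe the control libraries were made with earlier results of these data known. The genes named are the 20 with the highest TPM, list members, the 10 most and 10 least variable genes of at least 10 TPM, and the 3 that differ most in each library; RpS15Aa and RpL37-1, which a name pattern missed, pAbp, and CG4456 and phr, which overlap list members, are named beside them. Alternatives changed gene length, filters, scaling, the spread estimate, the libraries used and the total behind each share. Letters of core promoters were to be described and were not analysed here.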

Additional observations from a re-analysis of the deposited data

Results flagged for a closer look

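Among 38 list shares and 63 genes given by library, 17 had 1 library far from the other 3, with a gap to the nearest library past Dixon's 95% critical value. Chance sets about 1 in 20 groups of 4 independent values apart in this way. That rate does not hold here, because some of the genes were named for their spread and wt 2 and wt 3 lie close together, so the number is a description. The library that stood apart was wt 4 in 10 cases, wt 1 in 7 and wt 2 or wt 3 in 0.

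In wt 4, the Hedgehog pathway list held 0.0976% of TPM, the lowest of the 4 libraries, and mitochondrial ribosomal proteins held 0.510%, the highest. RpL41 was high there at 25482 TPM, smo at 58.96 TPM, Hr3 at 3.08 TPM and Cyp4g1 at 39.02 TPM. The polarity gene crb was low there at 57.1 TPM, the myosin gene Mhc at 1.47 TPM, dpp at 28.1 TPM and ftz-f1 at 2.21 TPM.

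In wt 1, en was low at 54.02 TPM, its paralog inv at 28.4 TPM, Dll at 48.7 TPM, Him at 20.7 TPM and Diap1 at 174 TPM. Nplp4 was high there at 349 TPM and CG13678 at 46.4 TPM.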

How the results depend on the processing

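No paired analysis was possible because only 1 group of libraries was described. Of 148 alternative values for 19 results, 132 stayed within the spread between libraries, or within 1.5 times for counts of genes, and 16 moved. List medians, ranks and shares are means over libraries, judged against the SD between libraries. Leaving out 1 library, or wt 2 and wt 3, cannot shift such a mean by that SD. These settings therefore could not move those results. The share of the highest genes does not use the TPM threshold and could not move with it. The 132 is thus no measure of robustness. The share of ribosomal protein, mitochondrial genome and cytoskeletal genes was 12.6%, 3.93% and 2.08% of reads, against 28.5%, 6.94% and 1.82% of TPM. With gut, fat body, salivary gland and mitochondrial genome genes left out of the total, ribosomal proteins held 30.7%, the cytoskeleton 1.97% and translation factors 2.27%. With longer symbol suffixes included, ribosomal proteins held 29.5%. The log10 span of measured genes was 2.69 at 5 TPM in every library and 3.37 without wt 2 and wt 3. Leaving out both, for this span and for list levels, the longer suffixes and the correction for length below were chosen after seeing the data. Stable genes numbered 4070 and variable genes 3195 with 1 read in 1 library as the filter, and variable genes 121 at 10 CPM. edgeR's tagwise estimate, which shrinks genes toward a trend, called 0 stable. Leaving out each library gave 1697 to 3845 stable genes, 306 to 544 variable genes, and a median excess CV of 10.1% (without wt 4) to 16.99%. After removal of the length trend 2912 genes were stable and 404 variable. The cause of these changes was not tested. Depth limits the genes under 1 TPM, and the 306 IDs without annotation and the unmatched list members limit the lists.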
